A study of Danio rerio with 6 samples.

Results

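Keratins, claudins and desmosomal genes were followed in neuroblastomas of transgenic zebrafish, tumours of the peripheral sympathetic nervous system. The members were all rows of the count table whose symbol begins as a keratin, claudin, plakophilin, plakoglobin, plakin, occludin, tight junction protein or related epithelial gene, which gave 69 of 14781 symbols. By role they fell into 16 keratins, 28 claudins, 7 desmosome and plakin genes, 8 junction scaffold and surface genes and 7 epithelial regulators. A further 3 only share the spelling (krtcap2, cldnd1a and cldnd1b). They were kept out of the role groups but are counted among the 69 members. Tumours with MYCN overexpression together with a gas7 knockout (knockout, 3 libraries) were compared with tumours with MYCN overexpression only (MYCN-only, 3 libraries), so both groups are labelled with MYCN overexpression. The sources used here give no promoter for MYCN, no gas7 allele, no age and no word on pooling of tumours. Nothing in the labels states that replicates came from different fish, and p-values therefore reflect only how these samples vary, which may be technical.

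Keratins are intermediate filament proteins that form a filament only as a dimer of a type I with a type II chain, and most epithelial cells make a characteristic set of them. Desmosomes anchor these filaments at cell contacts through desmosomal cadherins, plakoglobin, plakophilins and plakins. Claudins and occludin are membrane proteins of the tight junction, tied to actin by the ZO proteins, and each epithelium and endothelium carries its own claudins. Neurons and sympathetic tumour cells are not epithelial, so in bulk tumour RNA such genes are commonly read as epithelial or endothelial signal.

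Total counts ran from 20310441 to 33305326 in knockout and from 12054844 to 16624086 in MYCN-only libraries. Levels are given as CPM, the count relative to the library's total after TMM scaling. The sympathetic enzyme genes th and dbh mark the labelled tissue, and were read at no less than 1664 and 1402 CPM in any library. The 9 noradrenergic genes had a median log2 fold change of -0.64. Of these, ddc, at 104 to 248 CPM in knockout and 506 to 831 CPM in MYCN-only libraries, and phox2a, at 129 to 193 CPM and 239 to 507 CPM, did not overlap (background 12.3% below). The other listed genes overlapped. The log2 fold changes of th, dbh and insm1a were positive, at 0.45, 0.08 and 1.77, and those of the rest were negative. The zebrafish gene mycn stood at 1.30, 1.94 and 2.18 CPM in knockout and 3.55, 5.87 and 4.15 CPM in MYCN-only libraries (edgeR adjusted p = 0.215). The labels do not give the species of the transgene, so this row does not show the overexpression. gas7a, the one gas7 symbol of the table, stood at 14.8, 13.9 and 10.03 CPM in knockout and 23.0, 9.69 and 32.7 CPM in MYCN-only libraries (edgeR quasi-likelihood adjusted p = 0.411). The groups overlapped, and gas7a therefore neither bears out nor contradicts the genotypes. Certain libraries stood apart, and genes of several other epithelial organs moved with genotype or library. For 20 ovary and oocyte genes the summed level was 6962 and 9108 CPM in knockout libraries 2 and 3, but 42.2 CPM in knockout library 1 and 19.6 to 28.0 CPM in MYCN-only libraries, where the egg coat genes zp2.2 and zp3a.1 had 0 counts. Of the 16 tested, 14 had their highest level in knockout library 3. For 9 epidermal genes that are not members the summed level was 628 CPM in MYCN-only library 2 and 183 and 237 CPM in its group. It was 287 to 457 CPM in knockout, and 6 of the 8 tested were highest in MYCN-only library 2. Among these genes cdh1 alone stood at 159, 230 and 297 CPM in knockout and 76.5, 146 and 78.2 CPM in MYCN-only libraries. For 12 pancreas genes the summed level was 101 to 358 CPM in knockout and 619 to 1810.4 CPM in MYCN-only libraries, and all 11 tested were lower in each knockout library. For 10 liver genes it ran from 501 CPM in MYCN-only library 1 to 25471 CPM in MYCN-only library 2. The part of these organs in the members' levels was not tested. In bulk RNA, fewer cells of a type and less RNA per cell cannot be told apart.

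Of the 69 members, 58 had enough counts for the low-count filter and entered 1 fit over 12821 genes. None passed at an adjusted p under 0.05 in edgeR (0 of 58, background 0% of 12821 genes, range of adjusted p 0.174 to 0.969). At an unadjusted p under 0.05, 13 members were lower in knockout, against a background of 7.57% lower among all tested genes, and 6 were higher, against 11.5%. The 13 made up 22.4% and the 6 made up 10.3% of tested members. All 3 knockout libraries lay below all 3 MYCN-only libraries for 12 members (background 12.3%) and above for 3 (background 11.6%). krtcap2, which only shares the spelling, is among the 6 higher members and among these 3. The median log2 fold change of the tested members was -0.45, beside 0.04 over all tested genes. These are descriptions of the members that passed the filter, 47 of which were above its minimum in all 6 libraries.

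The count of lower members depended on single libraries of both genotypes. It was 5 of 62 without MYCN-only library 2 (background 4.55%). Without knockout library 2 it was 6 of 60 (background 6.31%) and without knockout library 3 it was 7 of 61 (background 4.69%). Without knockout library 1 it was 30 of 60 (background 13.6%). When both knockout library 2 and knockout library 3 were left out it was 3 of 63 (background 8.1%). DESeq2 called 11 members lower (background 4.02%) and 5 higher (background 6.29%) at an adjusted p under 0.05. krtcap2 is among these 5. limma-voom called 0 (backgrounds 0% lower and 0.0078% higher), and before adjustment 11 members were lower (background 7.81%) and 2 higher (background 6.15%) at 0.05. DESeq2 before adjustment had 14 lower (background 9.86%) and 7 higher (background 13.8%). edgeR without knockout library 1 called 9 lower (background 3.51%) and 8 higher (background 11.2%).

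**Figure D1:**
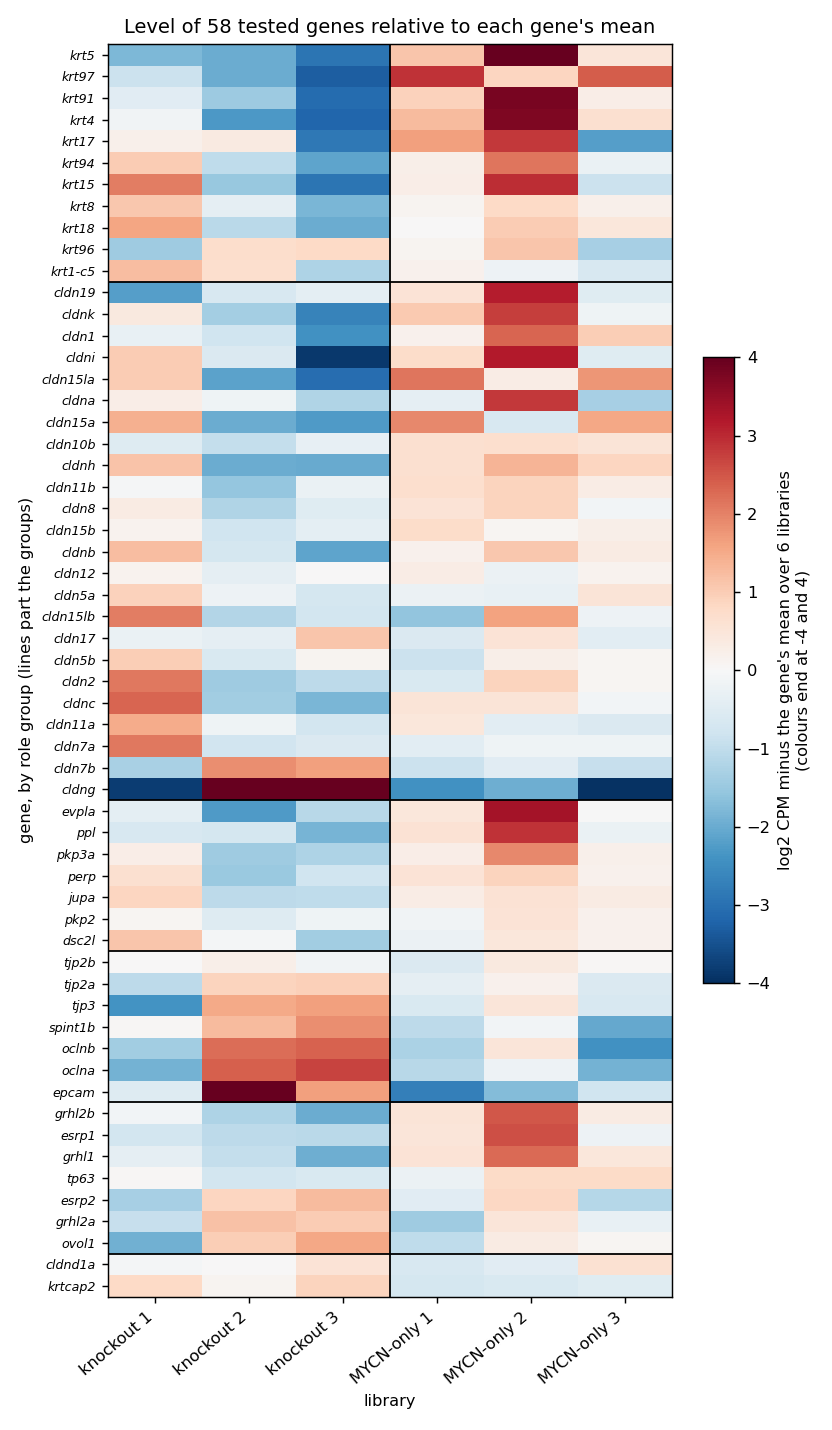
Level of the 58 tested members in the 6 libraries, as log2 CPM minus the gene's own mean over the libraries, with rows grouped by role (keratins, claudins, desmosome and plakin genes, junction scaffold and surface genes, epithelial regulators, and krtcap2 and cldnd1a last). MYCN-only library 2 holds the highest level of 26 members, knockout library 1 of 13 and knockout library 3 of 10.

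Members varied more among libraries of 1 genotype than most genes did. The median SD of log2 CPM among the MYCN-only libraries was 0.80 for members and 0.32 over all tested genes. Among the knockout libraries these medians were 1.19 and 0.53. The highest level of a member was in MYCN-only library 2 for 26 of 58, where 18.9% of all tested genes have their highest level. It was in knockout library 1 for 13 (background 22.4%) and in knockout library 3 for 10 (background 24.4%). None of the 58 tested members had its lowest level in MYCN-only library 2 (background 17.5%), while 25 had it in knockout library 3 (background 19.5%). MYCN-only library 2 was the most frequent highest library among keratins (7 of 11), claudins (9 of 24), desmosome and plakin genes (5 of 7) and regulators (4 of 7), and knockout library 3 among junction scaffold and surface genes (5 of 7).

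Among keratins, krt4, krt5, krt91 and krt97 had lower levels in each knockout library than in any MYCN-only library, while the simple epithelial keratins krt8 and krt18 overlapped. Of 11 tested keratins, 4 were lower at an unadjusted p under 0.05 (the same 4, background 7.57%) and 0 higher (background 11.5%). All knockout libraries were below all MYCN-only libraries for these 4, where the background is 12.3%. The median log2 fold change was -1.23. Summed over all 16 keratins the level was 3236, 799.9 and 325 CPM in knockout libraries 1, 2 and 3 and 1864, 6930.4 and 1623 CPM in MYCN-only libraries 1, 2 and 3. The summed level in knockout library 1 thus lay above MYCN-only libraries 1 and 3, and the groups overlapped.

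krt5, a type II keratin of the epidermis, stood at 3.74, 3.29 and 1.69 CPM in knockout and 28.8, 464 and 18.6 CPM in MYCN-only libraries. The groups did not overlap, and MYCN-only library 2 was 16.1 times the next highest. The log2 fold change was -5.88 (SE 1.45, n = 3 and 3; edgeR adjusted p = 0.178), and -3.0 without MYCN-only library 2. DESeq2 returned no p for krt5.

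krt4, a type II keratin of the surface layers of zebrafish skin, stood at 131, 29.1 and 15.9 CPM in knockout and 350.4, 1917 and 222 CPM in MYCN-only libraries. krt91 stood at 44.8, 22.5 and 7.23 CPM in knockout and 117, 865 and 74.5 CPM in MYCN-only libraries. In both genes every knockout library was below every MYCN-only library, and knockout library 1 was the nearest to them. Their log2 fold changes were both -3.83 (SE 1.18 and 1.17; edgeR adjusted p = 0.198 for each), and -2.27 and -1.92 without MYCN-only library 2. The count of krt4 per count of krt91 stayed between 1.29 and 2.99 in all libraries, while the level of krt4 ranged 121-fold.

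krt97 had another arrangement. It stood at 3.37, 1.49 and 0.554 CPM in knockout and 46.4, 11.5 and 33.6 CPM in MYCN-only libraries. Here MYCN-only library 2 was the lowest of its group, opposite to krt4, krt5 and krt91. The difference of -4.09 on the log2 scale (SE 0.836; edgeR adjusted p = 0.174) had the smallest unadjusted p of any member, 0.00213, and was -4.45 without MYCN-only library 2. The enterocyte gene fabp2 was also lowest in library 2 among the MYCN-only libraries, at 117, 11.2 and 179 CPM, against 3.63, 1.05 and 0.488 CPM in knockout libraries 1, 2 and 3. For 11 intestinal genes, 9 of them tested, the summed level was 102 to 757 CPM in knockout. It was 1728, 1753 and 1866 CPM in MYCN-only libraries 1, 2 and 3, so the sum was not lowest in library 2. In library 2 apoa1a and apoa4b.1 made up 698 and 717 CPM of it. Within that group apoa4b.1, rbp2a and fabp6 were highest in library 2, and the other listed genes were lowest there. cdx1b and fabp6 had 0 counts in knockout libraries 2 and 3. The part of intestinal tissue in the krt97 level was not tested.

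krt8 and krt18, the type II and type I partners of simple epithelia, overlapped between the genotypes. krt8 stood at 1234, 462 and 166 CPM in knockout and 633, 1026 and 673 CPM in MYCN-only libraries (log2 fold change -0.33, SE 0.673; edgeR adjusted p = 0.827). krt18 stood at 749, 119.8 and 63.5 CPM in knockout and 249.8, 504 and 341 CPM in MYCN-only libraries (log2 fold change -0.23, SE 0.889; edgeR adjusted p = 0.911). For both genes knockout library 1 was the highest of all 6 and knockout library 3 the lowest, so the knockout libraries spanned the whole MYCN-only range. With knockout library 1 as the only knockout library the log2 fold changes were 0.68 and 1.05. Without knockout library 1 they were -1.31 and -1.99, with edgeR adjusted p of 0.124 and 0.0331.

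Ratios of counts within a library do not depend on how libraries are scaled, and gene length cancels when the same ratio is compared across libraries. These ratios were chosen after the levels were seen. The count of krt5 per count of krt8, its neighbour on the chromosome, was 0.00303, 0.00711 and 0.0102 in knockout and 0.0454, 0.453 and 0.0277 in MYCN-only libraries. The groups did not overlap in this ratio, nor in krt4 per krt8 (0.0630 to 0.106 in knockout and 0.330 to 1.87 in MYCN-only). In contrast krt8 per krt18 lay between 1.65 and 3.86 in all 6 libraries, with overlapping groups. Relative to krt8, krt4 and krt5 were thus lower in each knockout library, including knockout library 1, where krt8 and krt18 were at their highest.

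**Figure D2:**
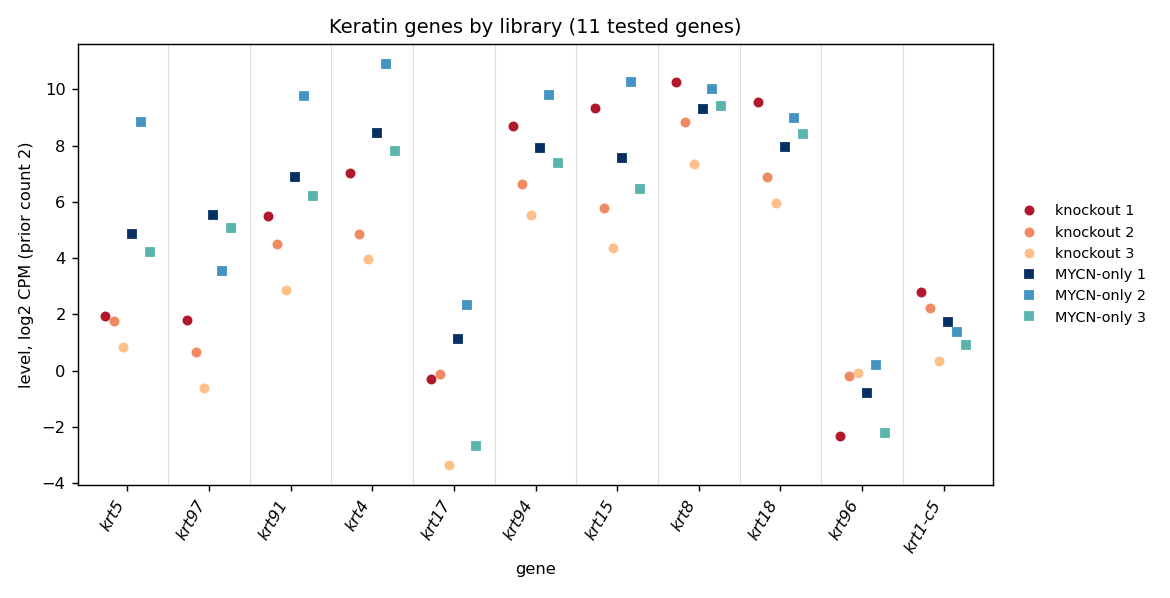
Level of the 11 tested keratins in each library, in log2 CPM with a prior count of 2, with genes ordered by fitted log2 fold change (circles: 3 knockout libraries, squares: 3 MYCN-only libraries). The circles lie below the squares for krt5, krt97, krt91 and krt4. For the other 7 genes the ranges of circles and squares overlap.

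krt15 and krt94, neighbours in a further keratin cluster, were high in 1 library of each genotype. krt15 stood at 649, 55.2 and 20.9 CPM in knockout and 189.9, 1232 and 87.3 CPM in MYCN-only libraries. krt94 stood at 413, 99.8 and 46.8 CPM in knockout and 240.0, 902 and 169 CPM in MYCN-only libraries. Their highest levels were in MYCN-only library 2 and knockout library 1, the groups overlapped, and the adjusted p in edgeR was 0.728 and 0.515. Without MYCN-only library 2 the log2 fold change of krt15 went from -1.06 to 0.82. krt17 was near the limit of detection in several libraries, at 0.727, 0.822 and 0 CPM in knockout and 2.1, 4.98 and 0.0577 CPM in MYCN-only libraries. krt96 and krt1-c5 stayed at or under 1.07 and 6.85 CPM.

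Keratins below the filter were cyt1, cyt1l, krt93, krt95 and krtt1c19e, none above 1.14 CPM in any library. cyt1, a type I cytokeratin gene, nevertheless had non-overlapping groups, at 4, 4 and 2 counts in knockout and 17, 6 and 17 counts in MYCN-only libraries. krt93 lay the other way, at 2, 4 and 14 counts in knockout and 0 counts in all MYCN-only libraries. Pooled over libraries, its knockout level was 3.93 times a floor of 3 counts over the MYCN-only group. That value leaves out the counting error of the knockout counts and the spread between libraries. Most krt93 counts came from knockout library 3. krtt1c19e, a type I keratin of basal epidermal cells in zebrafish, had 4 counts in MYCN-only library 2 and 0 in the other libraries. Keratin genes form families of similar copies, among which the counting could have divided reads, so values of single keratins carry that uncertainty.

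Among claudins some genes were high in knockout libraries 2 and 3, some in knockout library 1 and some in MYCN-only library 1 or 2. Of 24 tested claudins, 10 had a positive (background 52.4%) and 14 a negative log2 fold change, with a median of -0.58. At an unadjusted p under 0.05 there were 2 higher (background 11.5%) and 4 lower (background 7.57%). In 3 of them all knockout libraries were lower than all MYCN-only libraries, and in 0 of them higher. These 3 are 12.5% of tested claudins, near the background of 12.3%. The highest level was in MYCN-only library 2 for 9 (background 18.9%), in knockout library 1 for 8 (background 22.4%) and in MYCN-only library 1 for 4.

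cldnd and cldng showed the widest span between libraries. cldnd was counted 8, 16575 and 22015 times in knockout libraries 1, 2 and 3 and 0, 0 and 2 times in MYCN-only libraries 1, 2 and 3. As levels these were 0.415, 619 and 717 CPM in the knockout tumours. A count of 0 allows up to 0.180 CPM in MYCN-only library 1 and 0.267 CPM in MYCN-only library 2 (3 counts per library, counting error only). cldnd did not pass the filter, which asks for enough counts in 3 libraries, and was not tested in the filtered fit of all 6 libraries. Without knockout library 1, where it had 8 counts, it passed the filter and was among the members called higher (edgeR adjusted p = 0.000292).

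cldng stood at 0.519, 509 and 672 CPM in knockout and 1.5, 2.13 and 0.462 CPM in MYCN-only libraries. Knockout library 1 lay within the MYCN-only range, and the fitted difference of 8.18 on the log2 scale (SE 2.24; edgeR adjusted p = 0.187) was -1.35 with knockout libraries 2 and 3 left out. The egg coat gene zp3 was likewise highest in knockout libraries 2 and 3, at 1193 and 1635 CPM. Unlike cldng, it stood in knockout library 1 at 5.14 CPM, above the 0.635 to 0.711 CPM of MYCN-only libraries. Of the other tested ovary and oocyte genes, zp2.1, zp2.2, zp2.3, zp3a.1, zp3b, buc and nanos3 did not overlap between genotypes either. As for cldng, the groups overlapped for zpcx, org, zar1, dazl, ddx4, lhx8a, tdrd6 and sycp3. What part egg tissue has in these claudin levels was not tested.

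cldn7b was the third claudin of this arrangement, at 14.1, 128 and 110.0 CPM in knockout and 19.3, 25.5 and 18.5 CPM in MYCN-only libraries. Knockout library 1 was the lowest of the 6. Its log2 fold change was 1.99 (SE 0.742; edgeR adjusted p = 0.230) and -0.57 with knockout libraries 2 and 3 left out. Its paralog cldn7a had the opposite order, at 9.45, 1.20 and 1.4 CPM in knockout and 1.56 to 1.87 CPM in MYCN-only libraries. The count of cldn7b per count of cldn7a was 1.49, 107 and 78.6 in knockout libraries and between 10 and 13.7 in MYCN-only libraries, so the knockout libraries lay on both sides.

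Knockout library 1 held the highest level of cldnc, cldn2, cldn7a, cldn15lb, cldnb, cldn5a, cldn5b and cldn11a. cldnc stood at 81.5, 6.24 and 4.53 CPM in knockout and 23.1, 23.3 and 15.0 CPM in MYCN-only libraries (log2 fold change 0.59, SE 1.07; edgeR adjusted p = 0.803). cldn2, which in mammals forms cation pores in leaky epithelia, stood at 26.9, 2.28 and 3.0 CPM in knockout and 4.03, 11.5 and 6.58 CPM in MYCN-only libraries. For both genes knockout library 1 was the highest and knockout libraries 2 and 3 were the lowest of all 6. The endothelial claudin genes cldn5a and cldn5b spanned 3.14-fold and 3.64-fold between libraries, with overlapping groups (edgeR adjusted p = 0.920 and 0.691). For 8 endothelial marker genes the summed level ran from 232 to 665 CPM and was highest in knockout library 1. Only 3 of the 8 (cdh5, kdrl and vsg1) were highest in that library, and the other 5 were highest in MYCN-only library 2 or 3.

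cldn10b and cldn11b were lower in every knockout library. cldn10b stood at 10.6, 7.84 and 12.3 CPM in knockout and 23.7, 24.4 and 21.7 CPM in MYCN-only libraries, which gave a difference of -1.18 on the log2 scale (SE 0.277; edgeR adjusted p = 0.174). Its MYCN-only libraries differed little, at 23.2 ± 1.38 CPM (SD, n = 3), and the difference did not rest on a single library, with -1.33 to -1.03 when any 1 was left out. It was -1.12 with knockout libraries 2 and 3 left out. cldn11b, whose mammalian counterpart is a myelin and testis claudin, stood at 20.2, 7.17 and 17.4 CPM in knockout and 33.5, 38.7 and 25.6 CPM in MYCN-only libraries (log2 fold change -1.13, SE 0.429; edgeR adjusted p = 0.237).

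cldn1, a claudin of the epidermal barrier in mammals, stood at 1.30, 0.896 and 0.228 CPM in knockout and 1.86, 8.53 and 3.35 CPM in MYCN-only libraries. The groups did not overlap, and the log2 fold change was -2.5 (SE 0.868; edgeR adjusted p = 0.215). cldn19 stood at 0.571, 1.87 and 2.25 CPM in knockout and 4.39, 27.1 and 2.08 CPM in MYCN-only libraries, overlapping through knockout library 3 and MYCN-only library 3. Its log2 fold change went from -2.82 to -1.01 without MYCN-only library 2.

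Several low claudins were highest in MYCN-only library 2 by a wide margin. cldna, cldne, cldni and cldnk stood there at 5.69, 10.6, 12.6 and 4.18 CPM, and at no more than 0.883, 1.14, 2.75 and 1.20 CPM in any other library. cldnf had 0 counts in all knockout libraries and 2, 17 and 6 counts in MYCN-only libraries 1, 2 and 3. Pooled over libraries, its MYCN-only level was 14.1 times a floor of 3 counts over the knockout group. That value leaves out the counting error of the MYCN-only counts and the spread between libraries. Most cldnf counts came from MYCN-only library 2. cldna, cldne and cldnf lie next to each other in the genome. The epidermal annexin gene anxa1c had the same arrangement, at 19.7 CPM in MYCN-only library 2 and 2.34 CPM or less elsewhere. The listed epidermal genes scel, icn2 and agr2 had it too. They stood at 19.3, 3.64 and 47.6 CPM there and at no more than 2.54, 0.721 and 11.3 CPM elsewhere. itgb4 and col17a1a were highest there by a smaller margin. The remaining listed epidermal genes did not have this arrangement. anxa1a stood at 201 CPM in knockout library 1 and 203 CPM in MYCN-only library 2. itga6b was highest in knockout library 1 and cdh1 in knockout library 3. cldnk is known in zebrafish as a claudin of myelinating glia, and 4 of 6 tested myelin and Schwann cell genes were also highest in MYCN-only library 2. Their summed level, with the 1 untested gene, was 30.7 to 51.1 CPM in knockout and 53.1 to 116 CPM in MYCN-only libraries. The part of epidermal or glial tissue in these levels was not tested.

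cldn12 differed least of all claudins, between 46.8 and 73.0 CPM in the 6 libraries (log2 fold change -0.13, SE 0.247; edgeR adjusted p = 0.816). The intestinal type claudins cldn15a and cldn15la were at 0.224 and 0.448 CPM in knockout library 2 and 0.163 and 0.195 CPM in knockout library 3. Knockout library 1 had 3.32 CPM of cldn15a and 4.78 CPM of cldn15la. MYCN-only libraries 1, 2 and 3 had 4.69, 0.711 and 3.58 CPM of cldn15a. They had 10.5, 2.84 and 8.02 CPM of cldn15la. As for krt97 and fabp2, MYCN-only library 2 was the lowest of its group. cldn15b, cldn15lb, cldn8, cldn17 and cldnh overlapped between genotypes as well. cldn10a, which was not tested in the filtered fit of all 6 libraries, had 16, 24 and 8 counts in knockout. It had 4, 2 and 2 counts in MYCN-only libraries. Its CPM was higher in each knockout library, but nearly equal in knockout library 3 (0.261 CPM) and MYCN-only library 1 (0.240 CPM).

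**Figure D3:**
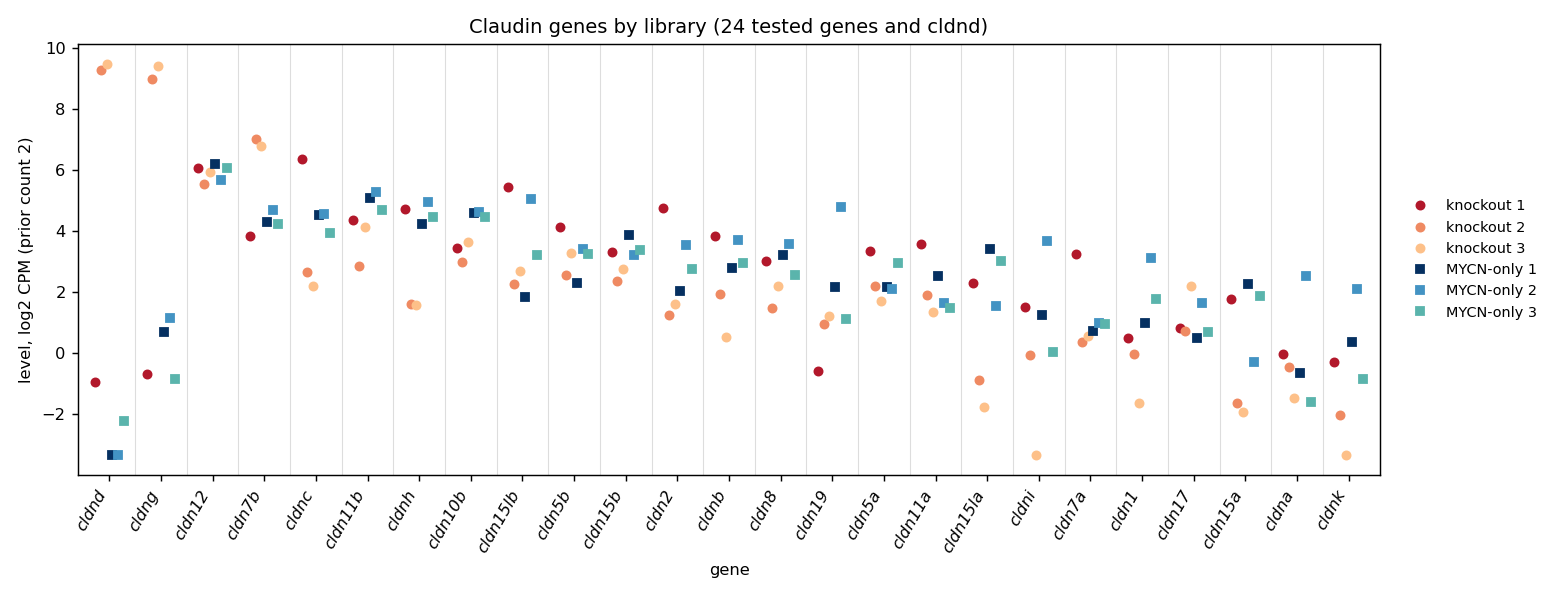
Level of the 24 tested claudins and of cldnd in each library, in log2 CPM with a prior count of 2, with cldnd first and the others in order of their mean level (circles: knockout, squares: MYCN-only). For cldnd, cldng and cldn7b knockout libraries 2 and 3 lie above the other 4 libraries, while for cldn12 all 6 lie close together.

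Members of 1 genomic cluster did not always share a pattern. In the order of genes of RefSeq assembly GRCz12tu, 23 members fell into 7 blocks with at most 5 other coding genes between neighbours. krt5, krt8 and krt18 are adjacent, and krt5 alone of these had groups that did not overlap. cldnh, cldnc, cldnb and cldnd form another block. In this block cldnd was high in knockout libraries 2 and 3, while cldnb, cldnc and cldnh had their lowest levels there. cldnh stood at 26.4, 2.99 and 2.87 CPM in knockout and 18.5, 31.0 and 21.8 CPM in MYCN-only libraries.

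Among desmosome and plakin genes, the plakin genes ppl and evpla had lower levels in each knockout library, and the other 5 genes overlapped. Of 7 tested, 2 were lower at an unadjusted p under 0.05 (background 7.57%) and 0 higher (background 11.5%), and their log2 fold changes had a median of -0.83. MYCN-only library 2 was the highest library for 5 of them. ppl, which encodes periplakin, a linker of keratin filaments to desmosomes, stood at 11.7, 11.2 and 4.95 CPM in knockout and 27.3, 136 and 15.1 CPM in MYCN-only libraries. evpla, which encodes its partner envoplakin, stood at 4.10, 1.05 and 2.44 CPM in knockout and 7.39, 55.0 and 5.25 CPM in MYCN-only libraries. Neither gene overlapped between genotypes, with log2 fold changes of -2.67 (SE 0.882) and -3.16 (SE 1.06) and edgeR adjusted p of 0.209 and 0.211. Without MYCN-only library 2 they were -1.15 and -1.31.

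The core desmosome genes differed less. jupa, which encodes plakoglobin, stood at 139, 37.0 and 37.9 CPM in knockout and 93.4, 112 and 95.3 CPM in MYCN-only libraries (log2 fold change -0.49, SE 0.550; edgeR adjusted p = 0.658). perp, a p53 and p63 target that mammalian desmosomes need, stood at 72.6, 16.7 and 27.0 CPM in knockout and 67.9, 86.3 and 52.1 CPM in MYCN-only libraries (edgeR adjusted p = 0.445). In both genes knockout libraries 2 and 3 lay below all MYCN-only libraries and knockout library 1 lay within or above them. Both passed as lower in edgeR when knockout library 1 was left out (adjusted p = 0.00705 and 0.0287).

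The desmocollin gene dsc2l stood at 53.9, 23.5 and 9.44 CPM in knockout and 21.3, 34.2 and 28.0 CPM in MYCN-only libraries (log2 fold change 0.06, SE 0.604; edgeR adjusted p = 0.969). The plakophilin genes pkp2 and pkp3a had log2 fold changes of -0.41 (SE 0.313) and -1.63 (SE 0.682), with overlapping groups. pkp2 ranged 2.09-fold over the 6 libraries, while pkp3a ranged 10.1-fold and was highest in MYCN-only library 2, at 54.5 CPM. The count of jupa per count of pkp3a was accordingly lowest in that library, at 2.06, and 5.40 to 8.07 elsewhere.

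Junction scaffold and surface genes had fitted differences in the opposite direction. All 7 tested genes had a positive log2 fold change (background 52.4%), with a median of 2.12, and 3 were higher at an unadjusted p under 0.05 (epcam, oclna and spint1b, background 11.5%). With knockout library 1 as the only knockout library the median was -0.80. Knockout libraries 2 and 3, left out of that fit, are the libraries in which the ovary and oocyte genes were highest. The part of those transcripts in this result was not tested.

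epcam encodes an epithelial adhesion protein that in mammals binds claudin-7. It stood at 27.3, 697 and 123 CPM in knockout and 5.77, 11.8 and 22.6 CPM in MYCN-only libraries. Every knockout library was above every MYCN-only library, by little in knockout library 1. The log2 fold change was 4.40 (SE 1.25; edgeR adjusted p = 0.192), 2.48 without knockout library 2 and 1.03 with knockout libraries 2 and 3 left out. Knockout library 2 was 5.68 times knockout library 3, an order opposite to cldnd, cldng and zp3, which were higher in knockout library 3. The count of epcam per count of oclna was 6.33, 8.06 and 1.16 in knockout and 0.768, 0.836 and 5.28 in MYCN-only libraries.

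The occludin gene oclna stood at 4.31, 86.5 and 106 CPM in knockout and 7.51, 14.1 and 4.27 CPM in MYCN-only libraries. Its paralog oclnb stood at 2.18, 28.6 and 31.0 CPM in knockout and 2.40, 8.27 and 1.04 CPM in MYCN-only libraries. Knockout libraries 2 and 3 were above all others, and knockout library 1 lay within the MYCN-only range. Their log2 fold changes were 2.93 (SE 1.08; edgeR adjusted p = 0.228) and 2.41 (SE 1.12; edgeR adjusted p = 0.297), and -0.98 and -0.80 with knockout libraries 2 and 3 left out. The count of oclna per count of oclnb lay between 1.71 and 4.11 throughout.

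spint1b encodes an inhibitor of the epithelial protease matriptase. It stood at 15.3, 35.3 and 54.4 CPM in knockout and 7.09, 13.7 and 3.46 CPM in MYCN-only libraries, without overlap (log2 fold change 2.12, SE 0.654; edgeR adjusted p = 0.198). With knockout library 1 as the only knockout library it was 0.95. spint1a was listed at 0 in all libraries. The matriptase gene st14a, named after its values were seen, stood at 5.92, 74.2 and 96.7 CPM in knockout and 17.7, 16.5 and 12.9 CPM in MYCN-only libraries, so that knockout library 1 was the lowest of the 6.

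Among the ZO genes, which encode the scaffold under the tight junction, tjp2b stayed between 31.9 and 63.0 CPM (log2 fold change 0.04, SE 0.299; edgeR adjusted p = 0.956). tjp2a stood at 13.4, 51.7 and 53.4 CPM in knockout and 21.4, 31.1 and 18.3 CPM in MYCN-only libraries. tjp3 stood at 1.4, 22.3 and 24.5 CPM in knockout and 5.11, 10.9 and 4.96 CPM in MYCN-only libraries. In both genes knockout libraries 2 and 3 were the highest and knockout library 1 the lowest, with edgeR adjusted p of 0.483 and 0.514.

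Epithelial regulators differed between paralogs. Of 7 tested genes, 3 were lower at an unadjusted p under 0.05 (esrp1, grhl1 and grhl2b, background 7.57%) and 0 higher (background 11.5%), and the median log2 fold change was -0.91. The splicing regulator gene esrp1 stood at 3.17, 2.5 and 2.44 CPM in knockout and 7.39, 32.3 and 4.62 CPM in MYCN-only libraries, without overlap (log2 fold change -2.44, SE 0.777; edgeR adjusted p = 0.203). Its paralog esrp2 stood at 6.80, 31.3 and 41.7 CPM in knockout and 12.7, 30.5 and 7.85 CPM in MYCN-only libraries, with overlap (log2 fold change 0.65, SE 0.756; edgeR adjusted p = 0.675). The count of esrp2 per count of esrp1 was 2.15, 12.5 and 17.1 in knockout and 1.72, 0.945 and 1.70 in MYCN-only libraries. All knockout libraries had the higher ratio, knockout library 1 by a small margin.

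The grainyhead genes, transcription factors of epithelial barrier genes, also differed between paralogs. grhl1 stood at 4.46, 2.99 and 1.43 CPM in knockout and 8.59, 28.4 and 8.02 CPM in MYCN-only libraries (log2 fold change -2.34, SE 0.693; edgeR adjusted p = 0.195). grhl2b stood at 1.82, 0.784 and 0.423 CPM in knockout and 2.82, 11.5 and 2.48 CPM in MYCN-only libraries (log2 fold change -2.47, SE 0.875; edgeR adjusted p = 0.218). Neither overlapped between genotypes, and both were highest in MYCN-only library 2, without which the log2 fold changes were -1.46 and -1.38. grhl2a stood at 3.32, 14.5 and 13 CPM in knockout and 2.34, 8.89 and 5.14 CPM in MYCN-only libraries. Its groups overlapped through knockout library 1. The count of grhl2a per count of grhl2b was 1.83, 18.5 and 30.6 in knockout and 0.775 to 2.07 in MYCN-only libraries. Unlike esrp2 per esrp1, this ratio overlapped between the genotypes, through knockout library 1.

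tp63, which maintains the basal epidermis, stood at 11.6, 6.87 and 7.39 CPM in knockout and 9.61, 19.6 and 19.3 CPM in MYCN-only libraries (log2 fold change -0.91, SE 0.405; edgeR adjusted p = 0.284). Unlike krt5, it was as high in MYCN-only library 3 as in MYCN-only library 2. ovol1, a transcription factor of epithelial differentiation, stood at 0.623, 5.34 and 7.85 CPM in knockout and 1.26, 3.29 and 2.77 CPM in MYCN-only libraries (edgeR adjusted p = 0.600). Its highest levels were again in knockout libraries 2 and 3 and its lowest in knockout library 1.

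**Figure D4:**
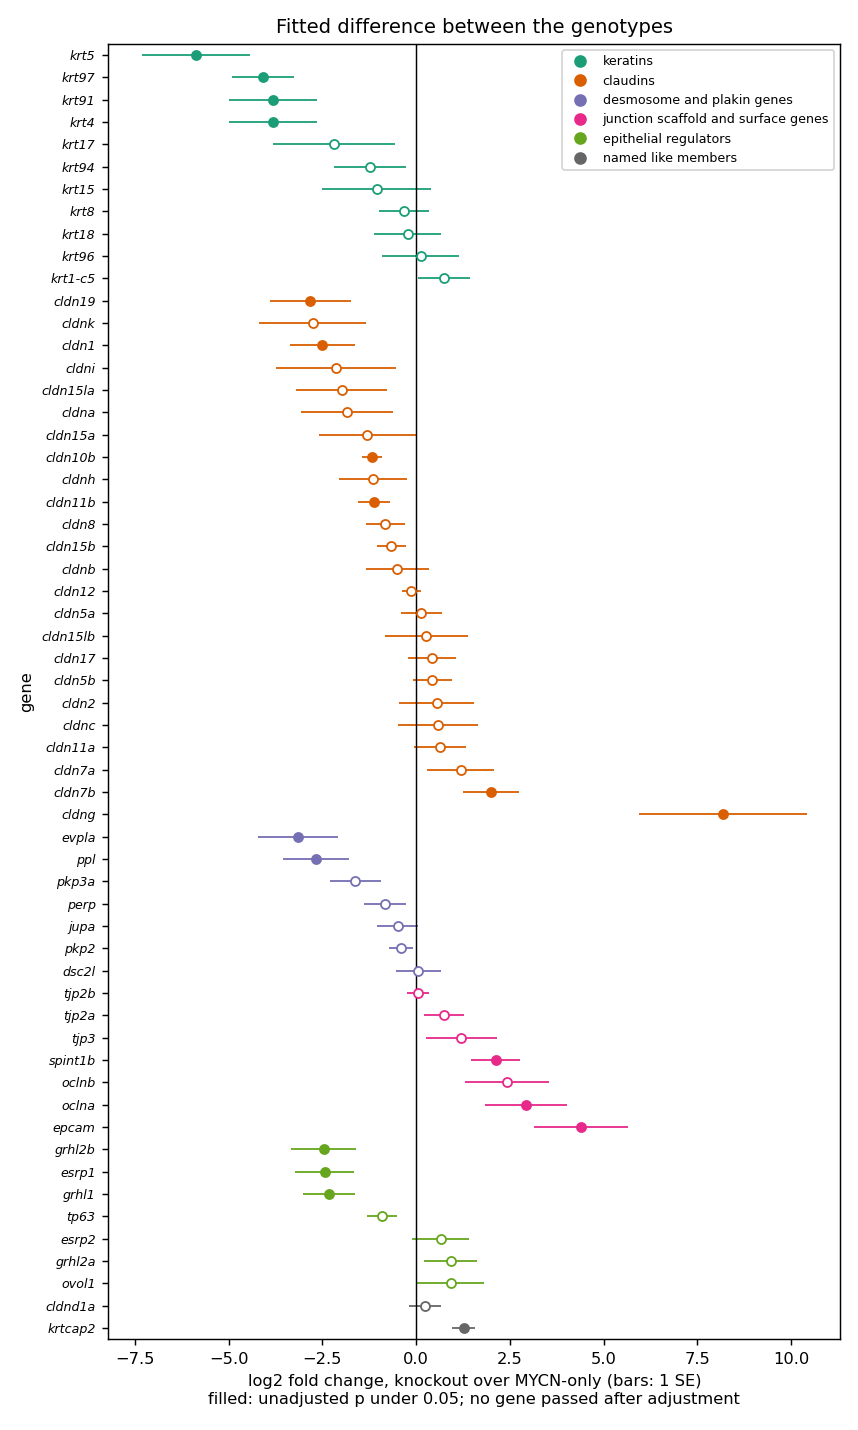
Fitted log2 fold change of knockout over MYCN-only for the 58 tested members, with bars of 1 SE and filled points where the unadjusted p was under 0.05. The 7 junction scaffold and surface genes lie at or to the right of 0, from 0.04 to 4.40, and 6 of the 7 desmosome and plakin genes lie to the left.

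Of the genes that only share the spelling, krtcap2 was higher in every knockout library. It encodes a subunit of the oligosaccharyltransferase of the endoplasmic reticulum, not a keratin. It stood at 30.2, 18.7 and 32.2 CPM in knockout and 10.5, 11.1 and 12.2 CPM in MYCN-only libraries (log2 fold change 1.26, SE 0.298; edgeR adjusted p = 0.174). cldnd1a had overlapping groups (log2 fold change 0.23, SE 0.422), and cldnd1b was listed at 0 in all libraries.

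Other genes of epithelial junctions, polarity and epidermis, from a list chosen with earlier results of these data known, had counts on the same side of the background as the members. Of 55 tested, 8 (14.5%, background 7.57%) had lower and 5 (9.09%, background 11.5%) had higher levels at an unadjusted p under 0.05, and the median log2 fold change was -0.19. Their highest level was in MYCN-only library 2 for 22 (background 18.9%). The 5 with the smallest p lay in both directions. itgb4, the hemidesmosome integrin, stood at 18.6, 12.3 and 8.37 CPM in knockout and 54.1, 127 and 40.4 CPM in MYCN-only libraries (log2 fold change -2.49, SE 0.538). myo5b, a motor of apical vesicle transport, stood at 38.5, 27.5 and 21.8 CPM in knockout and 72.3, 120.2 and 47.4 CPM in MYCN-only libraries (log2 fold change -1.45, SE 0.407). Both were below every MYCN-only library in every knockout library.

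cdh1, which encodes E-cadherin, went the other way, at 159, 230.2 and 297 CPM in knockout and 76.5, 146 and 78.2 CPM in MYCN-only libraries (log2 fold change 1.19, SE 0.372). The polarity gene pard6gb stood at 7.74, 18.4 and 27.6 CPM in knockout and 5.71, 5.60 and 6.69 CPM in MYCN-only libraries. The membrane protease gene tmprss4b stood at 2.49, 75.2 and 62.0 CPM in knockout and 1.32, 2.31 and 1.5 CPM in MYCN-only libraries. All knockout libraries were above all MYCN-only libraries in these 3 genes, by the least in knockout library 1. None of the 5 passed over all genes in edgeR (adjusted p = 0.174 to 0.201). In DESeq2 the adjusted p was 0.00055 for itgb4, 0.0273 for myo5b, 0.0376 for pard6gb and 7.8e-05 for tmprss4b. For cdh1 it was 0.0530, which did not pass.

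**Figure D5:**
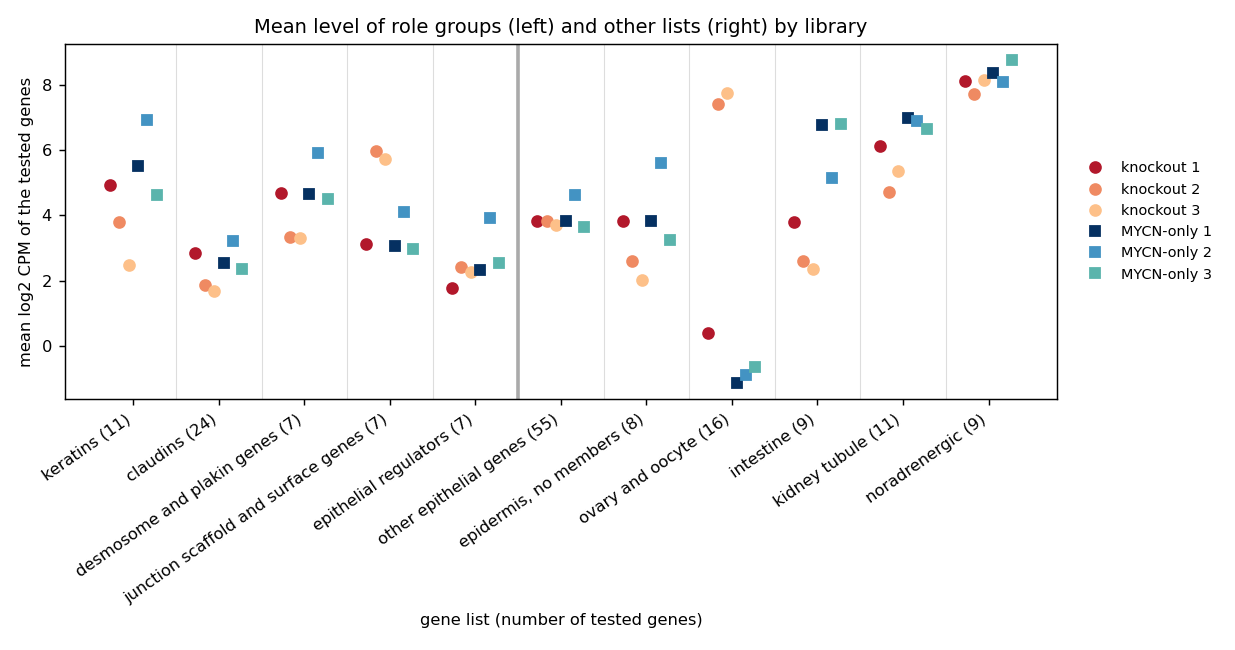
Mean log2 CPM of the tested genes of each role group (first 5 positions) and of other gene lists (the rest) in each library (circles: knockout, squares: MYCN-only; number of tested genes in brackets). Keratins, desmosome genes and epidermal genes that are not members are highest in MYCN-only library 2, and junction scaffold and surface genes, like ovary and oocyte genes, are highest in knockout libraries 2 and 3.

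In mean log2 CPM the role groups followed different lists across libraries. The mean log2 CPM of the tested keratins was 4.94, 3.80 and 2.47 in knockout and 5.5, 6.91 and 4.63 in MYCN-only libraries. The mean of the 8 tested epidermal genes that are not members was 3.82, 2.60 and 2.02 in knockout and 3.83, 5.60 and 3.25 in MYCN-only libraries. The order of the 6 libraries was the same in both means, though the epidermal means of knockout library 1 and MYCN-only library 1 were nearly equal. By summed CPM, untested genes included, the orders differed. Keratins had their lowest sum in knockout library 3, at 325 CPM, and the epidermal genes in MYCN-only library 3, at 183 CPM. In knockout libraries 2 and 3 the gene cdh1 made up 230 and 297 CPM of epidermal sums of 287 and 331 CPM. The junction scaffold and surface genes stood at 3.14, 5.97 and 5.74 in knockout and 3.06, 4.09 and 2.97 in MYCN-only libraries. Their highest means were in the libraries in which the ovary and oocyte genes were highest. The tested claudins, at 2.86, 1.85 and 1.67 in knockout and 2.55, 3.21 and 2.35 in MYCN-only libraries, had their lowest means in knockout libraries 2 and 3 although cldng is among them. Summed over all 28 claudins, with cldnd, which is not among those tested, the level was instead highest there, at 1368 and 1644 CPM. It was 389 CPM in knockout library 1 and 251 to 370 CPM in MYCN-only libraries. The tested ovary and oocyte genes had mean log2 CPM of 0.40, 7.43 and 7.77 in knockout and -1.14, -0.90 and -0.66 in MYCN-only libraries. The 11 kidney tubule genes had 6.13, 4.71 and 5.35 in knockout and 6.99, 6.91 and 6.64 in MYCN-only libraries, without overlap.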

How the data were processed

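Stranded paired-end libraries were made from total RNA of zebrafish tumours, 3 libraries per genotype, per the labels' protocols. The submitters' processing notes name danRer10 as the build and, as tools, featureCounts 1.4.6, Subread, TopHat2 2.0.14 and Bowtie2 2.2.6. The sources used here do not give the annotation, the strand setting or the handling of reads with several alignments. The authors deposited raw counts by gene symbol. Of 14781 symbols, 508 were at 0 in all libraries.

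filterByExpr left 12821 genes, scaled by TMM and tested with edgeR's quasi-likelihood F test, genotype being the only term, with Benjamini-Hochberg adjustment over all tested genes. Each SE is the absolute log2 fold change divided by the square root of F. The biological coefficient of variation was 52.5%. Replicates differed by more than sampling noise, with a chi-square of 65.2 or more for each degree of freedom. RefSeq GRCz12tu matched all 69 members and gave names and gene order only. List symbols missing from the table were matched through its synonyms. Gene lengths were not used, so levels are not compared between genes.

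Members and lists were chosen with earlier results of these data known. Genes given in full follow a rule: in each role group, up to 5 members with the smallest p, up to 5 with the highest mean CPM and up to 3 with the highest library furthest above the median library. Any member may be named. Alternatives were DESeq2 size factors, no filter, DESeq2, limma-voom, the replicate number as a block, leaving out each library, and leaving out knockout libraries 2 and 3, whose lone remaining knockout library is assumed to vary like the MYCN-only libraries. Versions were edgeR 4.0.16, DESeq2 1.42.0 and limma 3.58.1 under R 4.3.3, with Python 3.11.15.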

Additional observations from a re-analysis of the deposited data

How the results depend on the processing

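Depth limits the members under about 1 CPM, where a few counts decide a value, and 3 libraries per genotype limit every test. DESeq2 size factors in edgeR and the absence of a low-count filter turned the direction of 0 of 58 tested members and left 0 genes called. Without the filter 16 members and 11 other epithelial genes were lower before adjustment, and 8 members were higher. pkp3a then crossed the unadjusted threshold of 0.05 in edgeR. Counts of genes called were 0 in edgeR, 1323 in DESeq2, 1 in limma-voom, 8 with the replicate block and 9 with knockout libraries 2 and 3 left out. limma-voom gave 2 and the replicate block 3 members higher at an unadjusted p under 0.05, against 6. With knockout libraries 2 and 3 left out, 3 members and 5 other epithelial genes were lower, and the median log2 fold change was -0.80 for junction scaffold and surface genes and -1.59 for epithelial regulators. Direction turned there for 21 of the 58 tested members, among them, of those that the naming rule picks, krt15 (0.40), krt18 (1.05), krt8 (0.68), cldn12 (0.077), cldn7b (-0.57), cldng (-1.35), jupa (0.48), perp (0.092), oclna (-0.98), oclnb (-0.80), tjp2a (-0.80), esrp2 (-1.30) and grhl2a (-0.69). In limma-voom and with the replicate block 4 members each turned, among them cldnc (-0.81 and -0.72) and dsc2l (-0.32 and -0.28). The causes were not tested.

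Leaving out 1 library at a time gave 0 to 1923 genes called, 5 to 30 members lower and 4 to 11 higher, and 2 to 15 other epithelial genes lower. The most genes were called without knockout library 1. Medians of log2 fold change ran from -1.36 to -0.077 for members, -2.76 to -1.02 for keratins, -1.41 to -0.069 for claudins and -1.65 to -0.48 for desmosome and plakin genes. Direction turned in at least 1 of these fits for 16 of the 58 tested members, 8 of them without knockout library 1. Those that the naming rule picks were krt15 (-3.72 to 0.82), krt18 (-1.99 to 0.25), krt8 (-1.31 to 0.13), cldnc (-1.93 to 1.10), dsc2l (-0.76 to 0.48) and tjp2b (-0.19 to 0.31).

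The labels do not say what the replicate numbers stand for, and the levels did not show a pairing by number. Deviations from the group means correlated at -0.09, -0.15 and 0.19 between libraries of the same number, and not every library correlated best with its own number. With 3 libraries per genotype that differ widely, these correlations cannot decide whether the numbers mark anything shared. Whether the block, which called 8 genes where the fit without it called 0, is the better estimate is therefore not known.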
